A study of Caenorhabditis elegans with 8 samples.

Results

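Phosphatidylcholine is the main phospholipid of most animal cell membranes, those of the endoplasmic reticulum (ER) included. The genes described here are 10 of the 46093 genes in the count table and encode enzymes that make it. They are the choline kinases of the B class (ckb-1, ckb-2, ckb-3 and ckb-4), the phosphoethanolamine methyltransferases (pmt-1 and pmt-2), the enzyme that forms CDP-choline (pcyt-1), the phosphotransferases cept-1 and cept-2, and the S-adenosylmethionine (SAM) synthetase sams-1. They were chosen by gene name and enzyme role, and the group was selected on 1 measured result, the higher estimated count of ckb-2 in the strain labelled atf-6. Values of the 10 genes between strains are therefore a description, whatever fit they come from. All 10 had a row in the table, and 9 had enough counts to be tested.

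Poly(A) RNA was sequenced from whole Caenorhabditis elegans of 2 strains, with 4 libraries each. The strains were N2, the wild-type laboratory strain (wt), and a strain labelled atf-6, with the genotype given as atf6 and no allele named. Both were grown at 20 °C and collected as day 1 adults, 72 h after about 1000 synchronized first-stage larvae per replicate were placed on a lawn of OP50-1 bacteria. The labels call the replicates independent. The series title concerns atf-6, lifespan and calcium exchange between ER and mitochondria. ATF-6 is an ER-resident transcription factor, one of the sensors of unfolded proteins.

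Worms make phosphatidylcholine by a pair of routes that meet at phosphocholine. In the Kennedy pathway a choline kinase phosphorylates choline, a second enzyme activates phosphocholine to CDP-choline, and a phosphotransferase joins it to diacylglycerol. In nematodes and plants, phosphoethanolamine can also be methylated stepwise to phosphocholine, with SAM as the methyl donor. In C. elegans, loss of sams-1 or pmt-1 is known to lower phosphatidylcholine and to activate the lipogenic factor SBP-1.

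Estimated counts per library were 12664222 to 21698298. The targeted gene, atf-6, had 10.8 to 13.2 CPM (counts scaled to library size) in wt and 14.1 to 16.0 CPM in the other strain, so its transcript was not depleted there. A level of the whole transcript does not check an unnamed allele. Yolk and gut markers (8 of 8 tested), oocyte and germline markers (10 of 10) and muscle markers (5 of 5) were all detected, and neuron (6) and cuticle (4) markers were tested too. edgeR, DESeq2 and limma-voom called 0 of these genes. By each of these tools 1 muscle marker had an unadjusted p under 0.05, and by DESeq2 so did 2 oocyte and germline markers. Log2 fold changes were positive for 5 muscle, 4 cuticle, 4 neuron, 3 yolk and gut, and 0 oocyte and germline markers. The medians were 0.07 for muscle and -0.06 for oocyte and germline markers. The major sperm protein genes stood apart: 13 of 28 tested were called higher and 0 lower, against 0.711% and 0.105% of all tested genes. All 28 had an unadjusted p under 0.05 by edgeR, against 7% of all tested genes. Their summed level was 100.5 to 176 CPM in wt and 239 to 387 CPM in atf-6. Genes of a family can share reads, so the 28 are not separate results.

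In wild type the genes of the methylation route were the most abundant and the choline kinases of the B class the least. Levels of different genes are compared in TPM, a level scaled to transcript length and to the library's total. pmt-2, which carries out the later methylations of phosphoethanolamine, had 193, 214.5, 189.5 and 184 TPM in wt replicates 1 to 4. sams-1 had 119.3, 119.4, 123 and 110.2 TPM, and pmt-1, which carries out the initial methylation, had 101.1, 98.7, 78.6 and 99.5 TPM. The wt ranges of these 3 genes did not overlap, so their order was the same in all 4 libraries. The pmt-2 level was 1.91, 2.17, 2.41 and 1.85 times that of pmt-1 in wt and 1.98, 1.88, 1.90 and 1.81 times in atf-6.

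The steps downstream of phosphocholine were lower. cept-2, by its name a choline/ethanolamine phosphotransferase, had a mean of 36.5 ± 9.07 TPM in wt (SD, n = 4), and its relative cept-1 had 13.8 ± 3.50 TPM. Between them stood pcyt-1, the worm homolog of the CDP-choline-forming enzyme that is held to limit the rate of the Kennedy pathway in mammals, at 20.9 ± 0.909 TPM. The wt range of pcyt-1 overlapped neither of them. The level of cept-2 was 2.52 to 2.76 times that of cept-1 in wt and 2.13 to 2.70 times in atf-6.

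The kinase genes differed widely in transcript level. C. elegans also has the kinase genes cka-1, cka-2 and ckc-1, which are annotated as choline or ethanolamine kinases and are not among the 10. In wt cka-1 led with 22.4 ± 4.65 TPM, followed by ckc-1 with 10.5 ± 2.02, ckb-2 with 6.35 ± 1.88 and ckb-4 with 3.73 ± 0.330 TPM (SD, n = 4). cka-2 and ckb-1 were near the bottom at 1.29 ± 0.288 and 0.980 ± 0.133 TPM. The wt ranges of cka-1 and ckc-1 did not overlap, but those of ckc-1 and ckb-2, of ckb-2 and ckb-4, and of cka-2 and ckb-1 did. Within each single wt library the first of each of these pairs was still the higher one.

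**Figure D1:**
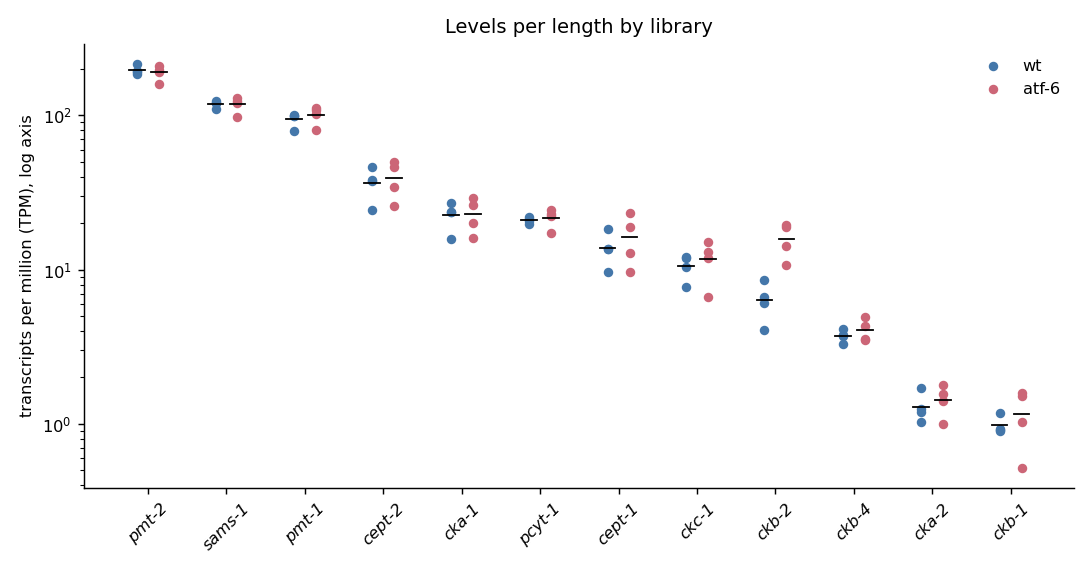
Transcript level per length (TPM, log axis) of 9 phosphatidylcholine genes and 3 further choline or ethanolamine kinases, ordered by their wt mean. Points are libraries (4 per strain) and short bars are means. pmt-2, sams-1 and pmt-1 lie at the top, cka-2 and ckb-1 at the bottom, and ckb-2 is the gene whose points separate by strain. ckb-3 (0 TPM in wt) is not drawn.

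ckb-3 was almost undetected. It had 0 counts in each of the 4 wt libraries and 1, 1, 2 and 2 counts in atf-6 replicates 1 to 4. These are 0 of 72945516 and 6 of 69113086 counts. Since 3 counts are the limit that a count of 0 allows in a library, both groups lay at or under that limit and no fold is given. The gene did not pass the filter on low counts and was not tested.

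Of the 9 tested genes, 1 was called higher in atf-6 (ckb-2), 0 were called lower and 8 were not called by edgeR (adjusted p under 0.05, adjusted over every gene tested). Over all genes, 0.816% of 12375 tested genes were called, 0.711% higher and 0.105% lower. Because ckb-2 was known to differ when the genes were listed, nothing is read from this count. DESeq2 and limma-voom also called ckb-2 and none of the other 8. The lowest adjusted p of the 8 uncalled genes was 0.902 by edgeR, and 0 of them had an unadjusted p under 0.05. The median log2 fold change of the 9 was 0.08, against 0.00191 for all tested genes.

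ckb-2 (WBGene00000512) encodes a kinase of the choline kinase family. In wt replicates 1 to 4 it had 14.96, 12.66, 8.92 and 11.1 CPM. In atf-6 replicates 1 to 4 it had 24.7, 27.7, 31.8 and 33.1 CPM, so every atf-6 library lay above every wt library. The groups failed to overlap in 5.79% of all tested genes. The log2 fold change was 1.31 (SE 0.150), a 2.48-fold difference with a 95% interval of 1.97 to 3.12. Of the 88 genes called higher it had the rank of 22 by fold change. In bulk RNA from whole worms, more cells that use the gene and more RNA per cell cannot be told apart.

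The sperm genes were higher in the same strain, so their levels are set beside those of ckb-2. The summed major sperm protein level was 100.5, 150.4, 176 and 104.5 CPM in wt. It was 387, 239, 273 and 271 CPM in the atf-6 libraries, in the same order of replicates. None of the 31 genes was at 0 in all libraries. Within each strain the order differed from that of ckb-2: the library with the most sperm transcript held the least ckb-2 in both (wt replicate 3 and atf-6 replicate 1). The log2 fold changes of the 28 tested sperm genes ran from 0.84 to 1.61. Their part in the difference of ckb-2 was not tested.

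**Figure D2:**
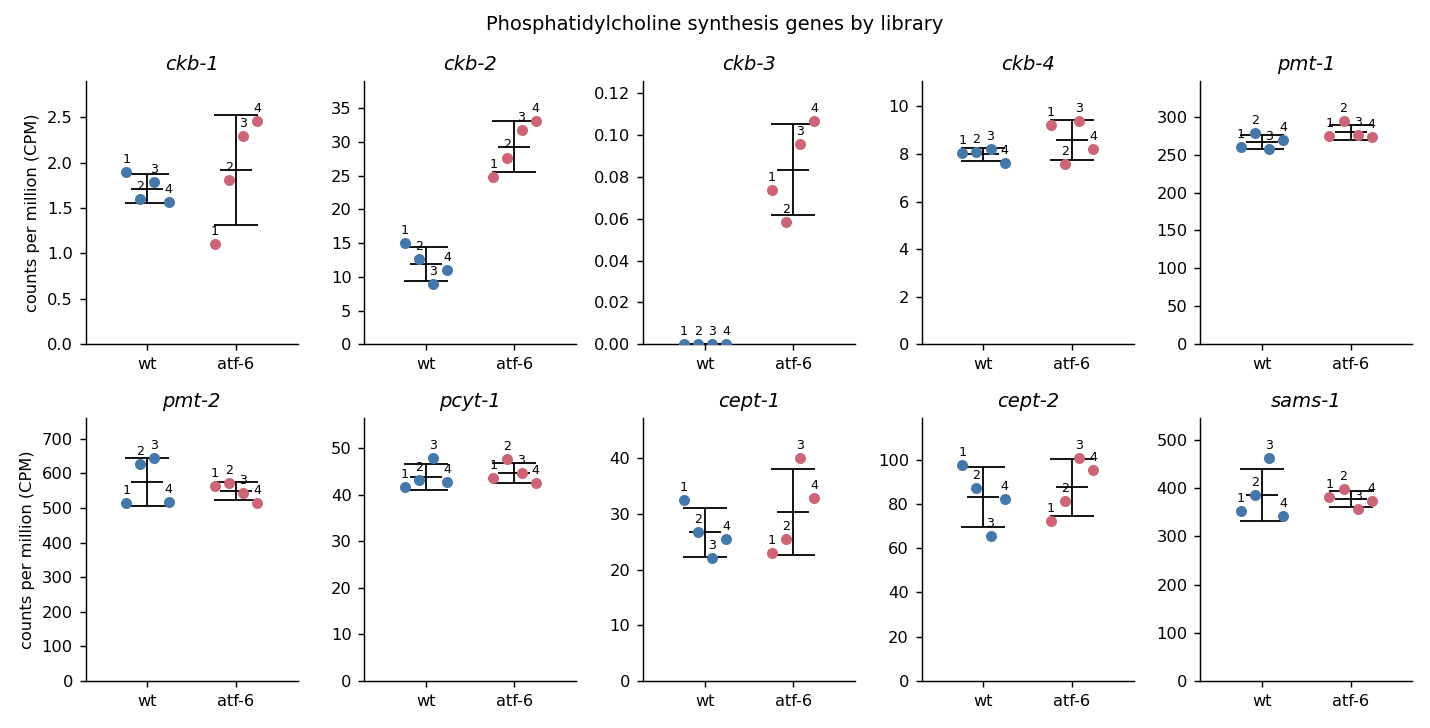
CPM of each of the 10 genes in every library. Points are libraries labelled by replicate number, the central bar is the mean and the whiskers are 1 SD (n = 4). The strains separate for ckb-2 (8.92 to 14.96 against 24.7 to 33.1 CPM). In ckb-3 the separation rests on 6 counts in all, and in the other 8 panels the strains overlap.

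With ckb-2 the makeup of the kinase transcripts differed between the strains. Of the TPM summed over all 7 choline and ethanolamine kinase genes, ckb-2 made up 16.0%, 14.4%, 12.3% and 12.6% in wt replicates 1 to 4. In atf-6 it made up 27.9%, 27.4%, 26.5% and 29.5%. cka-1 was the largest component, at 49.4 ± 1.16% in wt and 40.0 ± 1.42% in atf-6 (SD, n = 4). ckc-1 made up 23.3 ± 1.39% and 20.2 ± 2.41%. A share falls when another rises. None of the 6 other kinases was called, though ckb-3 was not tested. cka-1 had 48.5 ± 5.73 and 48.4 ± 6.21 CPM in the 2 strains. The ratio of cka-1 to ckb-2 was 3.11 to 3.92 in wt and 1.34 to 1.53 in atf-6. The shares and this ratio hold the ckb-2 difference on which the group was selected, so they are not a further result.

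**Figure D3:**
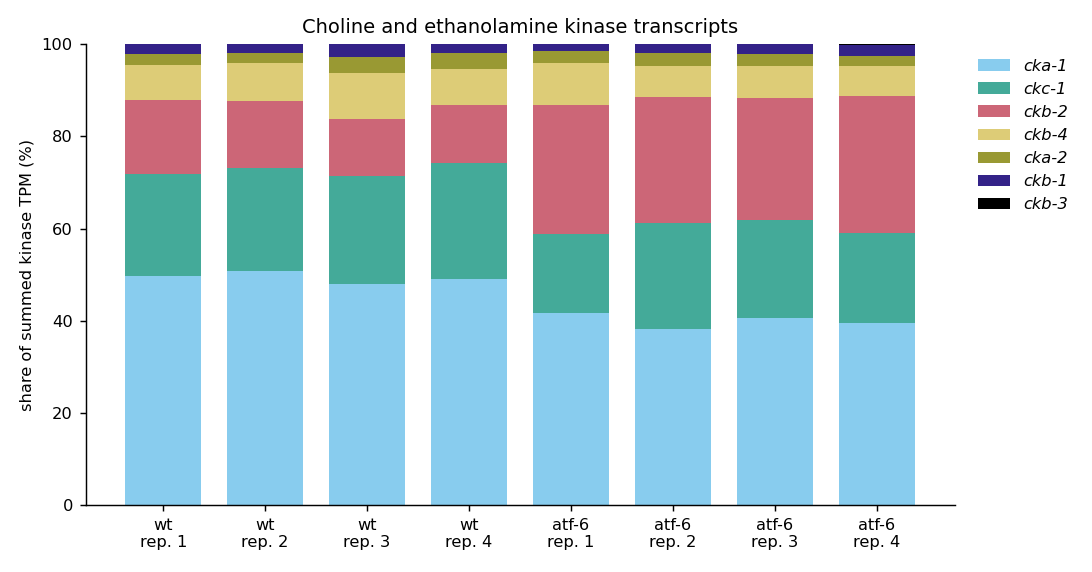
Share (%) of each of 7 choline and ethanolamine kinase genes in their summed TPM, one bar per library. ckb-2 takes 12.3% to 16.0% of the bar in the 4 wt libraries and 26.5% to 29.5% in the 4 atf-6 libraries, while cka-1 is the largest component of all 8.

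ckb-1, ckb-2 and ckb-3 lie next to each other on the plus strand of chromosome III (build WBcel235), at 4365274 to 4367469, 4367949 to 4370160 and 4370885 to 4372820. The gaps between them are 479 and 724 bases. Of its neighbours in this row, ckb-1 was not called and ckb-3 was not tested. ckb-1 had 1.90, 1.60, 1.78 and 1.57 CPM in wt and 1.10, 1.81, 2.30 and 2.46 CPM in atf-6, and its groups overlapped. Its log2 fold change was 0.20 (SE 0.235), and with 15 to 48 counts per library its 95% interval of -0.32 to 0.72 is the widest of the 9. ckb-4, which lies apart on chromosome V (2106398 to 2109434, minus strand), had 7.60 to 8.22 CPM in wt and 7.58 to 9.38 CPM in atf-6.

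The annotation places a further transcript inside ckb-2. The non-coding RNA gene srpr-1.2 (4369468 to 4369766, plus strand) lies in the intron between exons 7 and 8 of ckb-2, whose single annotated transcript has 8 exons. srpr-1.2 had 4.05 to 7.77 CPM in wt and 3.52 to 5.71 CPM in atf-6, and its log2 fold change of -0.18 (SE 0.231) was not called (adjusted p = 0.933, edgeR). Of the 5 tested genes within 10 kb of the 3 kinase genes, edgeR, DESeq2 and limma-voom called 0 (1 had an unadjusted p under 0.05), and their log2 fold changes ran from -0.49 to 0.40. The highest was that of mnp-1, just upstream of ckb-1, with 5.11 to 5.77 CPM in wt and 6.40 to 7.75 CPM in atf-6, groups that did not overlap (adjusted p = 0.170, edgeR). It was followed by B0285.6, B0284.3, srpr-1.2 and srpr-1.1.

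The methyltransferase genes and sams-1 differed little between the strains. pmt-1 (chromosome II, 5278090 to 5282523) had 260.2, 278, 258 and 269.5 CPM in wt and 275, 294, 276 and 273 CPM in atf-6. Its log2 fold change was 0.07 (SE 0.0553). pmt-2 (chromosome V, 4628580 to 4635263) had 515, 627, 645 and 518 CPM in wt and 564, 572, 543 and 514.5 CPM in atf-6. Its log2 fold change was -0.07 (SE 0.0897). The groups of both genes overlapped, and neither was called.

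sams-1, which makes the methyl donor, lies on chromosome X (11965962 to 11969893), 511 kb from atf-6. It had 352, 386.5, 463 and 343 CPM in wt and 382, 399, 357 and 373 CPM in atf-6. Replicate 3 was the high one in wt, and without it the sign of the log2 fold change turned from -0.03 (SE 0.0942) to 0.07. The 95% intervals of the log2 fold changes of pmt-1, pmt-2 and sams-1 lay between -0.27 and 0.19.

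pcyt-1 (chromosome X, 7572357 to 7581055) had the smallest log2 fold change of the 9 in size. Its level was 41.6, 43.2, 47.9 and 42.7 CPM in wt and 43.6, 47.6, 44.7 and 42.5 CPM in atf-6. The groups overlapped, and the log2 fold change was 0.03 (SE 0.0688) with a 95% interval of -0.13 to 0.18. Opposite-strand genes overlap pcyt-1 (unc-98 and WBGene00303053), cept-2 (Y49A3A.6) and cept-1 (nhr-27, with 0 to 2 counts per library). The sources used here do not say whether the counting used strand, so reads of such pairs may be mixed.

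The phosphotransferases varied more between libraries of one strain than between strains. cept-1 (chromosome X, 12762078 to 12765898) lies 277 kb from atf-6, the nearest of the 10. It had 32.5, 26.7, 22.0 and 25.5 CPM in wt and 23.0, 25.5, 40.1 and 32.9 CPM in atf-6. cept-2 (chromosome V, 14347766 to 14351482) had 97.5, 87.0, 65.4 and 82.4 CPM in wt and 72.4, 81.1, 100.8 and 95.4 CPM in atf-6. Both genes were highest in wt replicate 1 and atf-6 replicate 3 and lowest in wt replicate 3 and atf-6 replicate 1. The highest library was 1.47 and 1.75 times the lowest for cept-1 within wt and atf-6, and 1.49 and 1.39 times for cept-2. The log2 fold changes were 0.20 (SE 0.173) for cept-1 and 0.08 (SE 0.130) for cept-2, and neither was called.

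The low libraries were the same for 3 of the kinases. ckb-2, cka-1 and ckc-1 were also lowest in wt replicate 3 and atf-6 replicate 1. pmt-2, pcyt-1 and sams-1 were instead highest in wt replicate 3. The same 2 libraries had the highest summed markers of 4 tissues. Muscle markers summed to 5325 and 5215 CPM there, against 3568 to 4630 CPM in the other 6, and cuticle markers to 2235 and 2270 CPM, against 1391 to 1928 CPM. Neuron markers summed to 282 and 331 CPM, against 211 to 248.5 CPM, and yolk and gut markers to 108800 and 103600 CPM, against 84870 to 101600 CPM. Oocyte and germline markers summed to 8708 and 8312 CPM, against 7606 to 8556 CPM. None of these genes was at 0 in every library. The sums rest on their most abundant genes, and not every marker followed them. col-19 alone had 2221 and 2250 CPM in wt replicate 3 and atf-6 replicate 1, and unc-31 had 76.5 CPM in the latter. ges-1 was lowest of wt in replicate 3 (17.1 CPM). elt-2 and rab-3 were highest of wt in replicate 3 but lowest of atf-6 in replicate 1 (9.86 and 3.24 CPM). The part of such differences in the levels described here was not tested. For ckb-2 the highest library was 1.68 times the lowest in wt and 1.34 times in atf-6. Without wt replicate 3 its log2 fold change was 1.199, and without atf-6 replicate 1 it was 1.38.

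**Figure D4:**
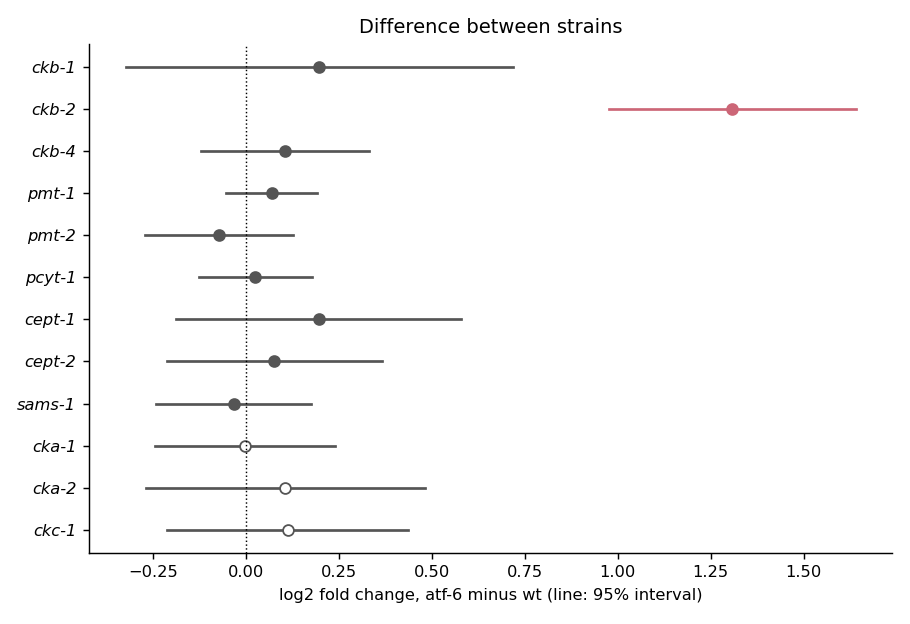
Log2 fold change (atf-6 minus wt) with its 95% interval for the 9 tested genes (filled) and the kinases cka-1, cka-2 and ckc-1 (open). The interval of ckb-2 runs from 0.97 to 1.64 and that of every other gene drawn includes 0. ckb-1 and cept-1 have the widest intervals of the uncalled genes.

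Transcript isoforms gave no separation of the strains in any of the 6 genes with several deposited transcripts. For cept-1 the shorter transcript (F22E10.5a, 1185 bases) held 59.5%, 63.2%, 55.1% and 49.3% of the gene's TPM in wt and 59.4%, 65.9%, 77.3% and 65.1% in atf-6. The means were 56.8 ± 5.996% and 66.9 ± 7.52% (SD, n = 4), and the groups overlapped. In pcyt-1 the shorter transcript (F08C6.2b, 1394 bases) held 98.5% in atf-6 replicate 2 and 100% in the other 7 libraries. For sams-1 the longest of 3 transcripts (2014 bases) held 70.7% to 89.0% over the 8 libraries.

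Reads of ckb-4 were assigned mostly to a transcript that the current annotation does not call coding. F22F7.5b (1230 bases), listed as ncRNA in Ensembl release 115, held 100% of the ckb-4 TPM in 5 libraries, 92.0% in wt replicate 3, and 75.4% and 84.8% in atf-6 replicates 1 and 3. The coding transcript F22F7.5a (1335 bases) was at 0 reads in those 5 libraries and at 11.3, 33.4 and 32.4 reads in the other 3. The division of ckb-4 reads between its transcripts rests on the quantifier's model. So does that of pmt-1, which has 13 deposited transcripts, and of pmt-2, whose 2 transcripts differ by 3 bases in length. The pmt-1 transcript ZK622.3d.8 held 26.4% to 60.8% over the 8 libraries and led in 5 of them, while ZK622.3d.1 led in wt replicate 3 (50.7%) and in atf-6 replicates 1 and 2 (53.9% and 39.9%).

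The further genes around this pathway were also mostly level. Over 7 lists, 89 genes were named and 84 of them tested. Of the 84, edgeR called 0 higher and 0 lower (2 had an unadjusted p under 0.05), limma-voom called 0 and DESeq2 called 1 higher. Their median log2 fold change was -0.000841, and the share called over all genes was 0.816%. Among the 3 other kinases, the 5 CDP-ethanolamine and phosphatidylserine genes and the 10 choline transport and acetylcholine genes, 0 had an unadjusted p under 0.05. The largest value there was that of cho-1, the neuronal choline transporter, at 0.41 on the log2 scale (SE 0.272), which was not called (adjusted p = 0.879, edgeR).

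In the methionine and folate cycle, which supplies SAM, 13 of 15 tested genes had a log2 fold change below 0, with a median of -0.04 and a lowest value of -0.11 (sams-4). The exception in size was sams-5, a further gene of the SAM synthetase family. It had 2.05, 2.92, 3.82 and 1.61 CPM in wt and 4.93, 5.48, 4.78 and 5.82 CPM in atf-6. The groups did not overlap and the log2 fold change was 1.02 (SE 0.230), but edgeR did not call it (adjusted p = 0.0914). It was the gene that DESeq2 called (adjusted p = 0.0109), and its adjusted p over all alternatives ran from 0.00651 to 0.411. Reads that SAM synthetase genes share could be assigned to any of them, so the value of a gene this low is uncertain.

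Among 18 genes of SREBP signalling and fatty acid synthesis, 14 had a positive log2 fold change, with a median of 0.06. fat-7, a stearoyl-CoA desaturase gene known to respond to SBP-1, had 85.3, 88.3, 86.1 and 76.9 CPM in wt and 92.7, 99.4, 108.2 and 106.8 CPM in atf-6. Its groups did not overlap, but its log2 fold change of 0.28 (SE 0.0700) was not called (adjusted p = 0.147, edgeR). fat-5 followed with 0.24 (SE 0.124), also not called (adjusted p = 0.816, edgeR). The phosphatidate and diacylglycerol list (22 tested) and the phosphatidylcholine use and phospholipase list (11 tested) had medians of 0.00950 and -0.00737. dgat-2 and pisy-1 in the former and ipla-3 and ipla-1 in the latter had the smallest unadjusted p, at log2 fold changes of 0.12, -0.11, -0.12 and -0.07.

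**Figure D5:**
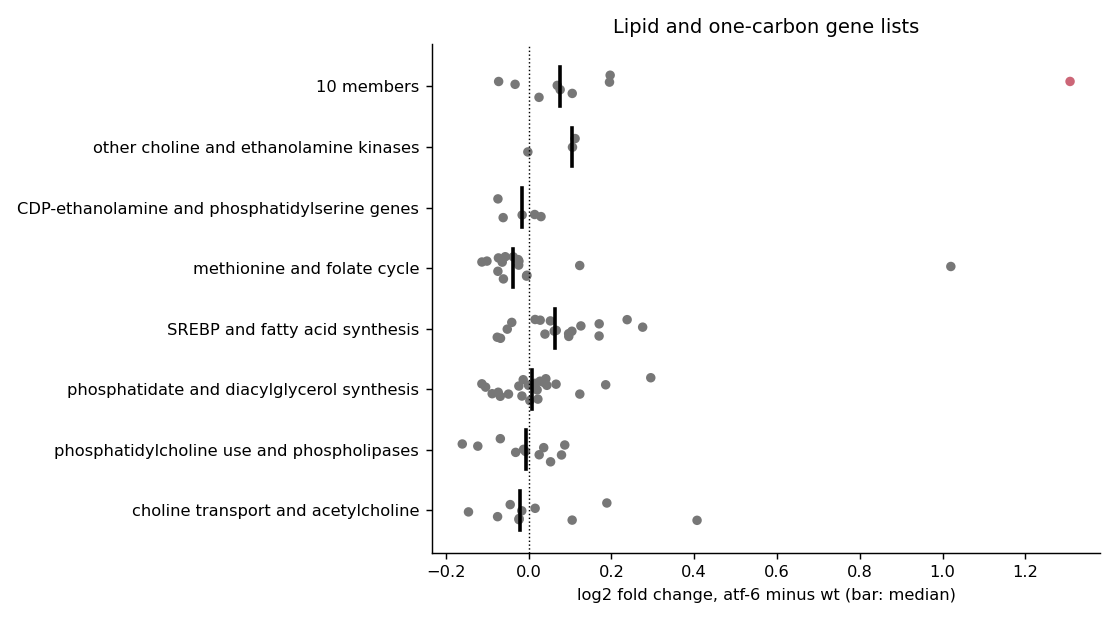
Log2 fold change (atf-6 minus wt) of every tested gene of the 10 phosphatidylcholine genes and of 7 further lists, with bars at the medians and a red point for the called gene. ckb-2 at 1.31 and, uncalled, sams-5 at 1.02 stand to the right, and the other points lie between -0.16 and 0.41.

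By correlation of log2 CPM over the 8 libraries, the genes whose pattern was most like that of ckb-2, among 10061 genes whose log2 CPM averaged 1 or more, were epi-1 (Pearson r = 0.984), C49G7.10 (0.967), F40B5.2 (0.964), tcl-2 (0.963) and tra-3 (0.961). These values share the libraries and hold the difference between strains, so they measure likeness alone. epi-1, which encodes a laminin alpha chain of basement membranes, had 112 to 129 CPM in wt and 143 to 160.2 CPM in atf-6. tra-3, a calpain protease gene, had 32.7 to 38.4 and 43.3 to 46.7 CPM. ckb-1 and ckb-3 lay below that minimum and were not ranked. None of the other 7 phosphatidylcholine genes was among these 5, and with 10061 genes ranked nothing is read from that.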

How the data were processed

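The 10 genes and the gene lists were chosen with earlier results of these data known. Per the labels' protocols, the libraries were made with a stranded TruSeq mRNA kit and run for 75 cycles on an Illumina NextSeq500; build WBcel235 and the tools DESeq2 1.19.51, STAR 2.5.3a and Salmon 0.9.1 come from the submitters' processing notes, with no role or order. The authors deposited estimated counts per gene, in whole numbers and not scaled for depth, which were tested. For 58105 transcripts, each sample's own file holds TPM and estimated reads, per the file headers. Table columns carry library numbers, tied to samples by the number of each sample's own file. Symbols and positions came from a gene name table and Ensembl release 115.

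The main test was edgeR 4.0.16 (R 4.3.3): filterByExpr (12375 genes), TMM, robust quasi-likelihood fit on strain, F-test (two-sided), with p-values adjusted by Benjamini-Hochberg over all genes. SE is the log2 fold change over the square root of F. Intervals are 95% from that fit. The model was also run on counts simulated from its own means and dispersions, which cannot show how well it describes these libraries. CPM uses TMM-adjusted library sizes. P-values measure the spread between these cultures. Every pair of replicates differed by more than counting error (chi-square at least 3.75 per degree of freedom). Named genes were the 10, the other kinases, called genes of each list or else the 2 with the smallest p, genes within 10 kb of the ckb-1 to ckb-3 locus, and the 5 most like ckb-2. Alternatives used limma 3.58.1, DESeq2 1.42.0 and sva 3.50.0.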

Additional observations from a re-analysis of the deposited data

Results flagged for a closer look

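In groups of 4 libraries, 1 library was set apart by a gap to its nearest neighbour larger, relative to the group's range, than Dixon's 95% critical value in 2 of the 50 groups examined (25 genes in each strain), where chance marks about 5% of groups. pmt-1 in atf-6 replicate 2 was at 294 CPM, with the other 3 libraries of that strain at 273 to 276 CPM. unc-17, the vesicular acetylcholine transporter gene, was at 1.90 CPM in wt replicate 1, with the other 3 wt libraries at 2.76 to 2.92 CPM. Neither gene was called between strains.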

How the results depend on the processing

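The call of ckb-2 held under 17 of 18 alternatives, with log2 fold changes of 1.199 to 1.42 when 1 library was left out and 1.25 to 1.33 otherwise. The exception was the fit with the replicate number as a block, where its log2 fold change was 1.32 without a call. In that fit 0 of the 10 genes were called, and 4 genes were called over all genes. The alternatives reuse the same libraries, and the threshold of 0.01 reuses the main fit. Since the group was selected on the difference of ckb-2, its calls describe the processing and are no further evidence. Same-numbered libraries did not deviate together over all genes (correlations of -0.385, -0.0446, -0.407 and 0.0430). These correlations cannot show whether libraries of the same number shared a batch. Over all genes, 101 were called, against 194 with DESeq2, 39 with plain sums of transcript reads, 15 at a threshold of 0.01, 326 with 1 surrogate variable, and 16 to 107 with 1 library left out (107 without wt replicate 3, and 16 to 41 without each of the other 7 in turn). Of the 84 further pathway genes 0 were called, but 1 (sams-5) without a filter on low counts and with DESeq2, 2 (with fat-7) with 1 surrogate variable, and 0 to 1 with 1 library left out. The surrogate variable was estimated from the same libraries, so its p-values can be too small. Signs turned for genes near 0: sams-1 to 0.00698 with the surrogate variable, cka-1 to 0.0245 with upper-quartile scaling, 0.00260 with limma-voom and 0.0219 with plain sums. With 1 library left out, pcyt-1 ran from -0.00941 to 0.0700, cept-2 from -0.0204 to 0.158, sams-1 from -0.0870 to 0.0661 and cka-1 from -0.0793 to 0.0573. The cause of these changes was not tested. Depth limits ckb-3 and ckb-1.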
